A study of Mus musculus with 7 samples.

Results

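The DNA replication genes of this series are 47 genes for the machinery that copies the genome in S phase. They are defined by a list of symbols and not by a threshold on their values, although earlier results of these data were known when the list was made. The Ensembl identifiers of the count table were matched to symbols of the GRCm38 annotation, and all 47 were found among the 48820 identifiers of the table. The counts are RNA-seq counts of whole tibialis anterior (TA) muscle of the lower leg, from male mice aged 7 weeks, taken on day 3 after injury with barium chloride (BaCl2), which kills fibres and starts regeneration. The 3 control libraries are from mice with genotype WT; Pax7-CreERT2, and the 4 Sirt7 scKO libraries are from mice with genotype Sirt7fl/fl; Pax7-CreERT2. Both groups therefore carried the Cre allele and were injured, and no uninjured muscle is part of the comparison. Pax7-CreERT2 is a recombinase made in Pax7-positive muscle stem cells and active after tamoxifen. The labels describe neither the tamoxifen treatment nor the efficiency of deletion. The RNA came from every cell of the muscle, so deletion in stem cells and their descendants is read against all other dividing and resting cells, and fewer cells of a type cannot be told apart from less RNA per cell.

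Replication runs through a fixed order of complexes. In G1 the origin recognition complex, with CDC6 and CDT1, loads the MCM helicase onto DNA, and the E2F transcription factors and cyclin E then bring the cell into S phase. CDC45 and the GINS complex turn the helicase on, primase and the DNA polymerases copy the strands on a sliding clamp made of PCNA, and the replication factor C (RFC) complex loads that clamp. Ribonucleotide reductase, thymidylate synthase and thymidine kinase supply the building blocks, and most genes of this machinery are transcribed under E2F control. At day 3 after injury many cells of a muscle divide, among them muscle stem cells, fibro-adipogenic progenitors and cells of the blood lineage.

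E2F factors bind sites of the form TTTCCCGC, TTTCGCGC, TTTGCCGC or TTTGGCGC. Promoters of the members were read from RefSeq (GRCm38.p6) as the 250 bases before each gene start and searched on both strands for these 4 words, whose matches may overlap each other. A promoter was present for 39 of the 47 members, 46 windows in all, and 9 of these windows (19.6%), each of a different gene, held at least 1 match. The share was 1.86% among all 32851 promoter windows of the same length and 3.09% among the windows of genes tested here. A total of 12 matches were found, at Cdc6, Pola1, Mcm6, Rfc3, Mcm5, Uhrf1, Orc1, Mcm7 and Gins3. The 5 windows that held a match outside annotated exons are shown, with matches in capitals. Mcm5 and Mcm6 encode helicase subunits, Pola1 encodes the catalytic subunit of DNA polymerase alpha, Cdc6 encodes a helicase loader, and Uhrf1 acts on the methylation of new DNA. The windows are chr8:75109259-75109508 (plus strand), chr1:128359706-128359955 (minus strand), chrX:93632156-93632405 (minus strand), chr11:98907982-98908150 (plus strand, cut to its part outside exons) and chr17:56304063-56304312 (plus strand). The last 2, of Cdc6 and Uhrf1, lie within the GENCODE span of their gene.

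Mcm5: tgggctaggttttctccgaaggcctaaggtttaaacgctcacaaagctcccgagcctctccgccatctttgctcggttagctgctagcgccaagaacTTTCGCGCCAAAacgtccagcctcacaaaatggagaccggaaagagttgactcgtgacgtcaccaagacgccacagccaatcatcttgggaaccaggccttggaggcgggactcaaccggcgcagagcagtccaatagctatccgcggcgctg

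Mcm6: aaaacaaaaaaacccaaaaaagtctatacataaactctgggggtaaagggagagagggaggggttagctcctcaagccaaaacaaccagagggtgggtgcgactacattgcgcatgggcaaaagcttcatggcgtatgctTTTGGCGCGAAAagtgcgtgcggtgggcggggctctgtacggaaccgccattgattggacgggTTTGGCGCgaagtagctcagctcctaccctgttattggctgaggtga

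Pola1: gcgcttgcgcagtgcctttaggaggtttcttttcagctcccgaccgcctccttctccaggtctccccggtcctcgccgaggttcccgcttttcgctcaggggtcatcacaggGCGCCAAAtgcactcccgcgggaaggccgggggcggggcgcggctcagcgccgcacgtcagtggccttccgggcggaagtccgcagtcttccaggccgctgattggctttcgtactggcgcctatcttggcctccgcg

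Cdc6: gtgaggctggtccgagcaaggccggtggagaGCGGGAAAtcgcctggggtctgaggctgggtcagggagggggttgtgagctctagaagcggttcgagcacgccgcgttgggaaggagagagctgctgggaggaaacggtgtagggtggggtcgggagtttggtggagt

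Uhrf1: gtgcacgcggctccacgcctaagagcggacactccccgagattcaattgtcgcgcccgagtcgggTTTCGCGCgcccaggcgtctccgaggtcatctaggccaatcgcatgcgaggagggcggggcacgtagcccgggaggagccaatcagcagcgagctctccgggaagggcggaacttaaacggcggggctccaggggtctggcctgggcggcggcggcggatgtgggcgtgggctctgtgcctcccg

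In Mcm5 a forward and a reverse match overlap in 1 block, and Mcm6 holds such a block and a further match closer to the gene start. A match is a sequence word and not a measured binding site. The genes with matches had log2 fold changes that ranged from -0.07 (Mcm7) to 0.46 (Cdc6) in Sirt7 scKO over control.

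Levels below are CPM, counts scaled to the TMM-adjusted library total, log2 fold changes are Sirt7 scKO over control, values with ± are means with SD (control n = 3, Sirt7 scKO n = 4), SE is the standard error of the fit, and the threshold is an edgeR adjusted p under 0.05 over all 16764 genes tested. The libraries held 5425095 to 7553137 counts. All 47 members passed the filter on low counts, with 7 to 1048 counts per gene and library. The targeted gene Sirt7, read as a check of the labels, had 46.2, 70.6 and 57.3 CPM in control against 39.7, 34.1, 47.9 and 53.0 CPM in Sirt7 scKO (log2 fold change -0.42 with SE 0.162, adjusted p = 0.288 by edgeR), with overlapping groups. Its counts come from all cells of the muscle. Markers of mature fibres were detected in all 7 libraries (14 of 14), as were those of stem cells and myoblasts (8 of 8), macrophages (10 of 10), fibro-adipogenic progenitors (8 of 8) and endothelium (6 of 6). Of the 7 lymphocyte markers 3 were detected in every library, and the neutrophil marker Ly6g had no count. The labels number the libraries of a group as biological replicates and do not say whether muscles were pooled.

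None of the 47 replication genes passed the threshold in either direction (0 by edgeR, 0 by DESeq2 and 0 by limma voom), where 0.131% of all genes tested passed (0.101% higher and 0.0298% lower). The values lay mostly a little higher in Sirt7 scKO: 33 of 47 log2 fold changes were positive (70.2%, against 51.3% of all genes tested), with a median of 0.13 beside 0.01 for all genes. The largest positive value was 0.59 for thymidylate synthase (Tyms) and the largest negative value -0.28 for the clamp loader subunit gene Rfc2. At an unadjusted edgeR p under 0.05 there were 11 members (23.4%), 10 higher and 1 lower, where all genes gave 13.6% (6.69% higher and 6.94% lower). In 11 members (23.4%) the lowest Sirt7 scKO value exceeded the highest control value, where 6.51% of all genes tested did so. The reverse order was seen in 0 members and in 5.71% of all genes. The count at an unadjusted edgeR p under 0.05 was 2 without control replicate 2 (where all genes gave 8.14%), and the median was then 0.06. That library had the lowest level of all 7 in 18 of the members, and without it 22 of the 47 log2 fold changes moved by over 1.5 times or changed sign, 16 of them to a smaller size. Leaving out some library did so for 34 of the 47. Values near 0 meet this rule with small shifts. How many of all genes tested moved as far, or were lowest in control replicate 2, was not counted.

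**Figure D1:**
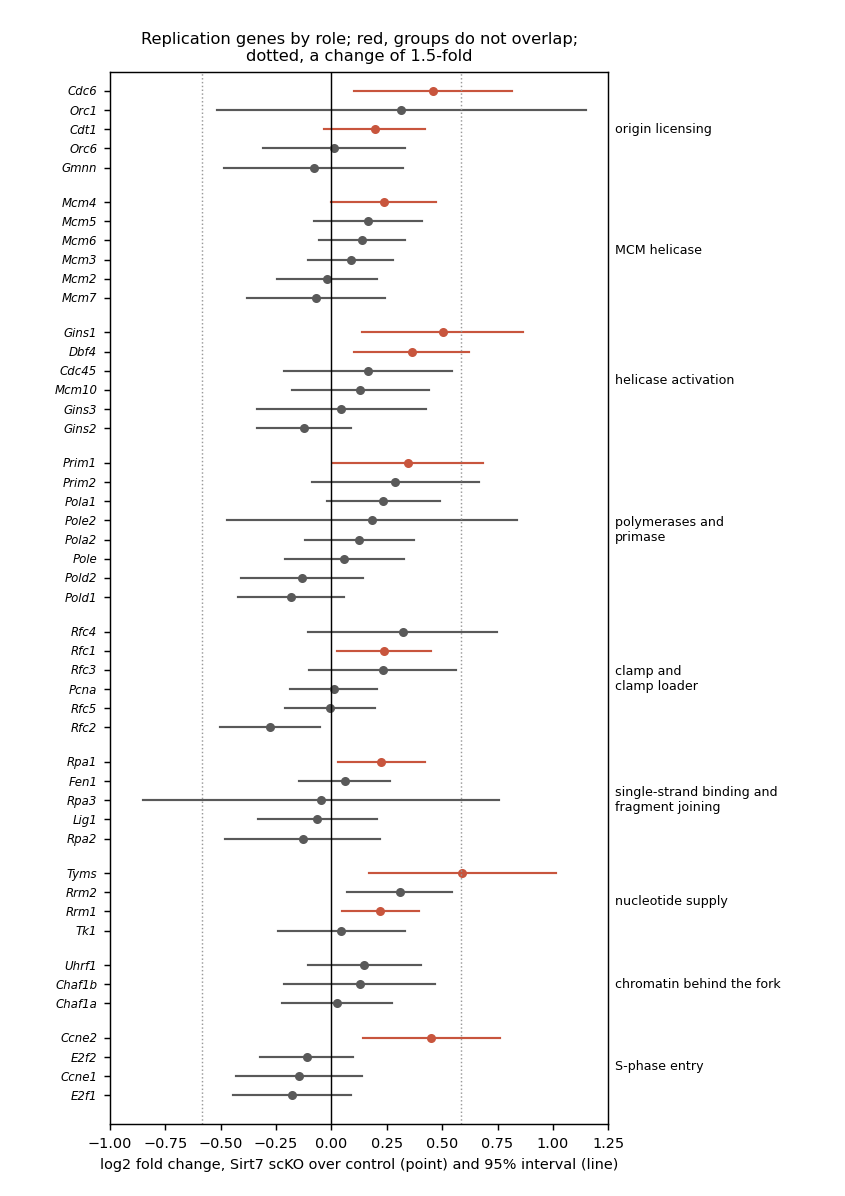
Log2 fold change of each replication gene, Sirt7 scKO over control (x axis), with the point for the estimate and the line for the 95% interval of that gene alone, grouped by role and with dotted lines at a change of 1.5-fold. The 11 genes in red had no overlap between groups and all lie right of 0, Rfc2 lies left of 0 with its whole interval, and the intervals of 36 of the 47 genes lie inside the dotted lines.

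The intervals bound how large a difference the counts at each gene can hold. For 36 of 47 members (76.6%) the 95% interval of the gene lay within a change of 1.5-fold in either direction, against 64.1% of all genes tested. The other 11 were Orc1, Cdc6, Gins1, Dbf4, Prim1, Prim2, Pole2, Rfc4, Rpa3, Tyms and Ccne2. These intervals are per gene and are not adjusted for the number of genes. They leave out counts at intronless copies of a gene, described further on, which for 5 members exceeded the counts of the gene. The median coefficient of variation of the members was 11.4% among control libraries and 11.5% among Sirt7 scKO libraries, and over all genes tested it was 10.6% and 12.6%.

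Summed over the 47 genes, the level was 1921, 1878 and 2059 CPM (control replicates 1 to 3) against 2154, 2127, 1954 and 2012 CPM (Sirt7 scKO replicates 1 to 4). The highest sums were in Sirt7 scKO replicates 1 and 2, and Sirt7 scKO replicates 3 and 4 lay below control replicate 3, so the groups overlapped. The sum of the 14 mature fibre markers was 5915, 3866 and 2299 CPM (control replicates 1 to 3) against 4008, 677, 1425 and 1370.0 CPM (Sirt7 scKO replicates 1 to 4), with 0 of 14 log2 fold changes positive and a median of -1.09. Markers of stem cells and myoblasts summed to 644 to 1075 CPM in control and 537 to 792 CPM in Sirt7 scKO (2 of 8 positive, median -0.34). The 10 monocyte and macrophage markers summed to 9823 to 10470.0 and 9895 to 11780.0 CPM (5 of 10 positive, median 0.01), and the 6 neutrophil markers to 109.8 to 116 and 106 to 171 CPM (3 of 4 tested positive, median 0.99). Progenitor markers of the fibro-adipogenic lineage summed to 1133 to 1253 and 992 to 1227 CPM (2 of 8 positive, median -0.10) and endothelial markers to 328 to 412 and 339.8 to 399 CPM (3 of 6 positive, median 0.01). Markers of regenerating fibres summed to 145 to 461 and 114 to 143 CPM (0 of 4 positive, median -1.25), and those of lymphocytes to 13.7 to 17.9 and 11.2 to 19.3 CPM. The part of these cell types in the levels of the replication genes was not tested. When the scaling left out the 18 fibre markers, the median of the members stayed at 0.13. That step changes only the scaling of the libraries, so it cannot show what part fibres have in these levels.

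**Figure D2:**
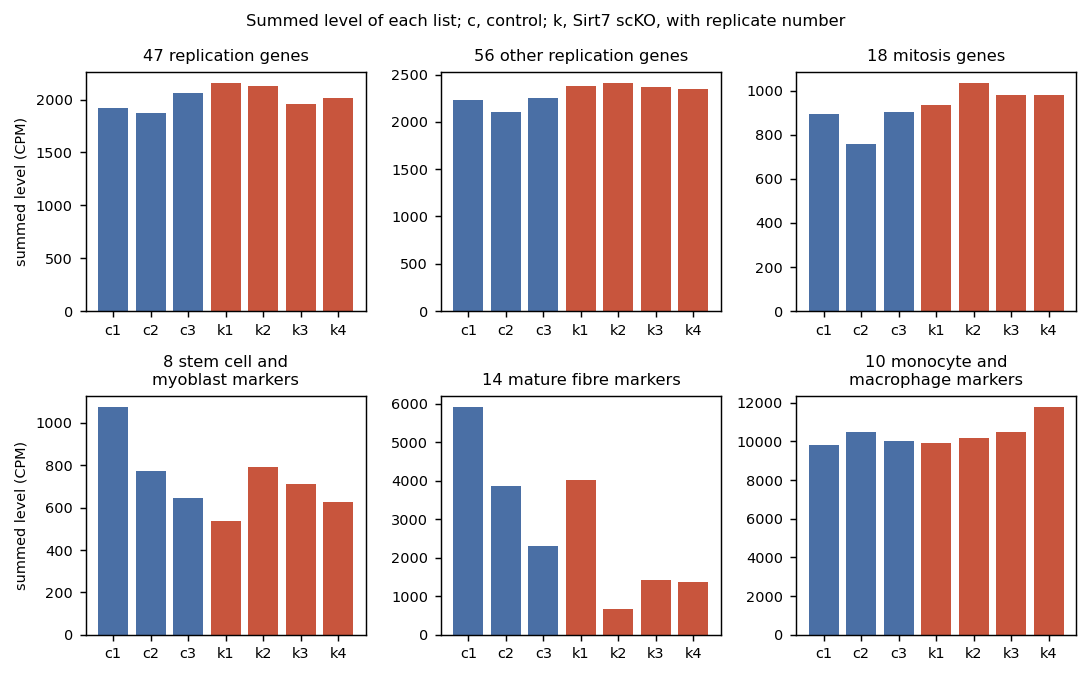
Summed level in CPM (y axis, from 0) of 6 gene lists in each library (x axis; c, control; k, Sirt7 scKO, with the replicate number). The 47 replication genes differ little between libraries (1878 to 2154 CPM), while the mature fibre markers range from 677 to 5915 CPM.

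Levels of the genes differed by far more than the groups did. Per kilobase of annotated exon, the mean level over the 7 libraries was highest for Rrm2, the regulatory subunit of ribonucleotide reductase, at 34.8 CPM per kb. It was followed by Pcna at 32.2, the flap endonuclease gene Fen1 at 27.4 and Mcm3 at 26.5 CPM per kb. The lowest were Orc1, the large subunit of the origin recognition complex, at 1.06, Tyms at 1.248 and the polymerase epsilon subunit gene Pole2 at 1.43 CPM per kb, so the members spanned a 32.8-fold range. The MCM subunits act as a ring with 1 copy of each, and the levels of their genes per kb were 26.5 for Mcm3, 24.8 for Mcm6, 20.9 for Mcm5, 13.7 for Mcm4, 12.8 for Mcm2 and 4.69 CPM per kb for Mcm7, a 5.65-fold range. The RFC subunits spanned 4.61-fold, from 4.05 CPM per kb for Rfc3 to 18.6 for Rfc2. Exon length here is the union of all annotated transcripts, so a gene with long minor transcripts reads low, and counts at processed copies of a gene, described further on, are not in its level.

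**Figure D3:**
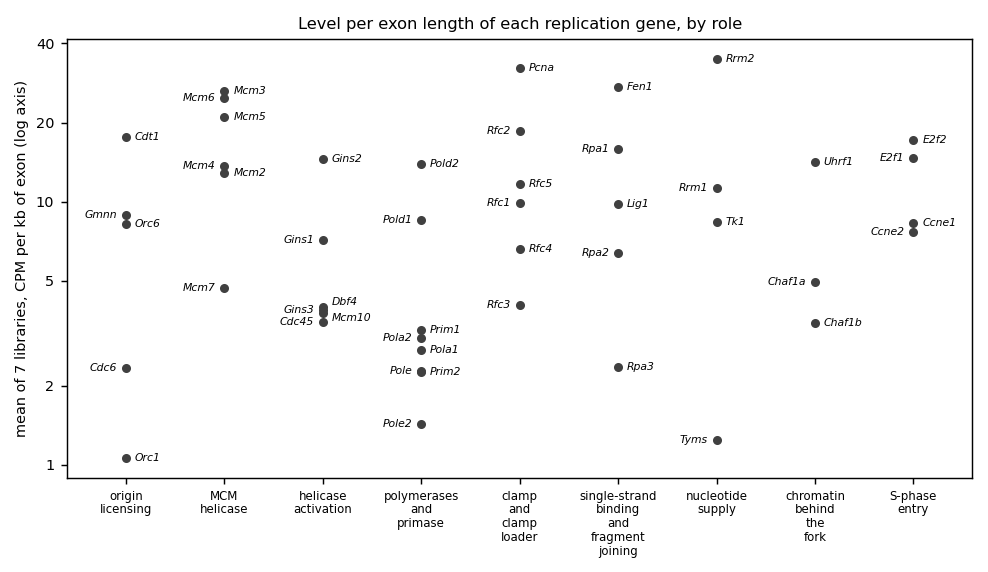
Mean level over 7 libraries in CPM per kb of exon (y axis, log scale) for each replication gene (points), grouped by role (x axis). Levels run from 1.06 for Orc1 to 34.8 for Rrm2, and Mcm7 lies below the other 5 MCM subunits.

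Among the 5 genes of origin licensing none passed the threshold and 4 had positive log2 fold changes (median 0.20). Cdc6 (chromosome 11, 98907801 to 98923940), whose ATPase product loads the helicase with the origin recognition complex, had 9.38, 9.16 and 11.6 CPM (control replicates 1 to 3) against 15.3, 12.2, 15.1 and 12.5 CPM (Sirt7 scKO replicates 1 to 4). All 4 Sirt7 scKO values exceeded all 3 control values (10.04 ± 1.33 against 13.8 ± 1.68 CPM, log2 fold change 0.46 with SE 0.165, adjusted p = 0.258 by edgeR). With counts at its processed copy added, described further on, the groups overlapped. Cdt1, the partner of CDC6 in loading, had 45.0, 53.0 and 55.5 CPM in control against 65.8, 56.6, 55.8 and 56.0 CPM in Sirt7 scKO, again without overlap but with a gap from only 55.5 to 55.8 CPM (log2 fold change 0.20 with SE 0.105, adjusted p = 0.443 by edgeR). Without control replicate 1 the log2 fold change of Cdt1 was 0.11. Gmnn encodes geminin, the inhibitor of CDT1, and was 13.4 ± 2.20 against 12.8 ± 2.64 CPM with a log2 fold change of -0.08. Orc1 had only 22, 20 and 14 counts in control and 29, 43, 33 and 7 counts in Sirt7 scKO (log2 fold change 0.32 with SE 0.385, adjusted p = 0.765 by edgeR), and its interval of -0.52 to 1.15 leaves a change of 2-fold in reach. Orc6, a small subunit of the same complex, was 20.2 ± 2.91 against 20.3 ± 2.96 CPM (log2 fold change 0.01). Of the Orc1 exon bases 10.8% are shared with Gm12743 on the opposite strand.

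In the MCM ring, the motor that unwinds DNA, none of 6 genes passed and 4 had positive log2 fold changes (median 0.11, beside 0.13 for all members). Mcm4 had 45.5, 37.4 and 50.6 CPM (control replicates 1 to 3) against 50.8, 54.8, 51.5 and 52.6 CPM (Sirt7 scKO replicates 1 to 4). Its groups did not overlap, by a gap from 50.6 to 50.8 CPM (log2 fold change 0.24 with SE 0.110, adjusted p = 0.368 by edgeR), and without control replicate 2 the log2 fold change was 0.12. Mcm5 had 76.1, 71.9 and 86.7 CPM in control against 97.1, 94.8, 72.01 and 86.3 CPM in Sirt7 scKO and Mcm6 had 112, 96.8 and 119.8 CPM in control against 126, 118, 112 and 126 CPM in Sirt7 scKO, and both overlapped (log2 fold changes 0.16 and 0.14, edgeR adjusted p = 0.557 and 0.533). The other 3 subunit genes had log2 fold changes of 0.09 (Mcm3), -0.02 (Mcm2) and -0.07 (Mcm7). The interval of Mcm2 was -0.24 to 0.20.

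Of the 6 genes that turn the helicase on, 5 had positive values (median 0.15) and none passed. Gins1, a subunit of the GINS complex, had 9.55, 8.62 and 8.06 CPM (control replicates 1 to 3) against 14.3, 12.9, 10.8 and 11.3 CPM (Sirt7 scKO replicates 1 to 4), without overlap (8.75 ± 0.756 against 12.4 ± 1.62 CPM; log2 fold change 0.50 with SE 0.169, adjusted p = 0.236 by edgeR). Dbf4 encodes the activator of the CDC7 kinase, which fires licensed origins. Its level was 30.8, 24.2 and 34.5 CPM (control replicates 1 to 3) against 37.7, 38.7, 38.0 and 39.2 CPM (Sirt7 scKO replicates 1 to 4) (log2 fold change 0.36 with SE 0.120, adjusted p = 0.228 by edgeR). The 4 Sirt7 scKO libraries lay within 37.7 to 39.2 CPM, above the more scattered controls, and without control replicate 2 the log2 fold change was 0.23. Gins2, from the same complex as Gins1, pointed the other way with 65.0, 62.2 and 61.3 CPM in control against 64.6, 55.2, 59.0 and 51.5 CPM in Sirt7 scKO (log2 fold change -0.12 with SE 0.0973, adjusted p = 0.608 by edgeR). Of its exon bases 67.3% are shared with Gse1 on the opposite strand, which had 79.7 ± 2.64 against 66.5 ± 5.57 CPM (log2 fold change -0.26), and without strand the reads of the pair cannot be told apart. Gins3, Cdc45 and Mcm10, the last a factor that joins helicase and polymerase, had log2 fold changes of 0.05, 0.17 and 0.13.

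Of the 8 genes of primase and polymerases 6 had positive values (median 0.15), with no gene past the threshold. All 4 genes of the polymerase alpha-primase complex, which lays down the first stretch of each new strand, had positive values. Prim1, the catalytic primase subunit, had 11.3, 9.70 and 11.7 CPM (control replicates 1 to 3) against 12.2, 12.9, 14.7 and 15.9 CPM (Sirt7 scKO replicates 1 to 4), without overlap (log2 fold change 0.35 with SE 0.158, adjusted p = 0.361 by edgeR). Prim2, the large primase subunit, had 12.2, 11.5 and 12.3 CPM in control against 16.3, 14.7, 16.8 and 10.4 CPM in Sirt7 scKO, with Sirt7 scKO replicate 4 below every control library (log2 fold change 0.29 with SE 0.174, adjusted p = 0.496 by edgeR). Pola1 had 21.0, 21.7 and 22.9 CPM in control against 25.6, 28.0, 22.6 and 26.9 CPM in Sirt7 scKO, where 1 Sirt7 scKO library overlapped the controls (log2 fold change 0.23 with SE 0.117, adjusted p = 0.406 by edgeR), and Pola2 had a log2 fold change of 0.12. The leading strand polymerase genes Pole and Pole2 had log2 fold changes of 0.06 and 0.18. Polymerase delta copies the lagging strand, and its genes differed in sign. Pold1 had 44.4 ± 5.08 against 39.1 ± 3.13 CPM (log2 fold change -0.18) and Pold2 had 27.8 ± 2.49 against 25.4 ± 3.25 CPM (log2 fold change -0.13), while the accessory subunit genes outside the 47 had log2 fold changes of 0.0348 (Pold3) and 0.18 (Pold4). The epsilon subunit gene Pole4, also outside the 47, had a log2 fold change of -0.0363.

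Clamp loader genes differed in sign among themselves. Rfc1, the large subunit of the loader, had 54.0, 52.8 and 55.2 CPM (control replicates 1 to 3) against 68.0, 68.8, 55.8 and 61.7 CPM (Sirt7 scKO replicates 1 to 4). The groups did not overlap, by a gap from 55.2 to 55.8 CPM (log2 fold change 0.24 with SE 0.0981, adjusted p = 0.316 by edgeR). Rfc2, a small subunit of the same loader, had 107, 142 and 142 CPM (control replicates 1 to 3) against 116, 101, 106 and 108 CPM (Sirt7 scKO replicates 1 to 4) (131 ± 20.1 against 108 ± 6.49 CPM; log2 fold change -0.28 with SE 0.104, adjusted p = 0.271 by edgeR). Control replicates 2 and 3 were high, while control replicate 1 lay inside the Sirt7 scKO range. No other member was lower at an unadjusted edgeR p under 0.05. It shares 952 exon bases (15.1%) with Lat2 on the opposite strand, an adaptor gene of immune cells. Lat2 had 84.4, 114 and 112 CPM in control against 98.9, 83.5, 90.1 and 78.9 CPM in Sirt7 scKO (log2 fold change -0.23), also highest in control replicates 2 and 3, and the part of shared reads was not tested. Rfc4 had 8.34, 6.83 and 11.4 CPM in control against 12.7, 11.4, 9.58 and 10.6 CPM in Sirt7 scKO (log2 fold change 0.32 with SE 0.197, adjusted p = 0.504 by edgeR). Its log2 fold change was 0.17 without control replicate 2 and 0.55 without control replicate 3. Rfc3 had a log2 fold change of 0.23 and Rfc5 one of -0.01. On the opposite strand, Rfc4 shares 12.7% of its exon bases with Eif4a2 (log2 fold change 0.14). Rfc5 shares 10.7% with Wsb2 (log2 fold change -0.03). Pcna, the clamp itself, had 77.0 ± 1.36 against 77.7 ± 6.84 CPM (log2 fold change 0.01, interval -0.18 to 0.21).

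Replication protein A coats single-stranded DNA at the fork, and the values of its 3 subunit genes differed in sign (none past the threshold). Rpa1, the large subunit, had 81.3, 79.4 and 82.0 CPM (control replicates 1 to 3) against 104, 98.5, 91.2 and 83.8 CPM (Sirt7 scKO replicates 1 to 4), without overlap (log2 fold change 0.23 with SE 0.0909, adjusted p = 0.304 by edgeR). Rpa2 had 20.1, 21.9 and 18.04 CPM in control against 20.4, 19.5, 13.2 and 20.2 CPM in Sirt7 scKO, with Sirt7 scKO replicate 3 low (log2 fold change -0.13 with SE 0.162, adjusted p = 0.770 by edgeR). Rpa3, the least abundant member by CPM, had 2.08, 2.87 and 3.15 CPM in control against 2.81, 1.18, 3.59 and 3.03 CPM in Sirt7 scKO, and its interval of -0.85 to 0.76 bounds little. Fen1, which trims the flaps between Okazaki fragments, had 64.3, 59.5 and 70.8 CPM in control against 72.6, 69.3, 65.4 and 62.6 CPM in Sirt7 scKO (log2 fold change 0.06 with SE 0.0948, adjusted p = 0.825 by edgeR). The antisense gene Gm10143 covers 78.8% of the Fen1 exon bases and had 61.7, 56.4 and 68.3 CPM in control against 66.1, 66.5, 60.5 and 58.3 CPM in Sirt7 scKO, nearly the Fen1 values. Lig1, the ligase that seals the fragments, had a log2 fold change of -0.06.

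Nucleotide supply had the highest median of the 9 roles, with 4 of 4 genes positive (median 0.26, where 51.3% of all genes were positive) and 3 at an unadjusted p under 0.05 (13.6% of all genes), none past the threshold. Tyms, which makes thymidylate from deoxyuridylate, had 5.04, 6.65 and 5.96 CPM (control replicates 1 to 3) against 7.74, 9.55, 8.23 and 10.03 CPM (Sirt7 scKO replicates 1 to 4), without overlap (5.88 ± 0.807 against 8.89 ± 1.078 CPM; log2 fold change 0.59 with SE 0.196, adjusted p = 0.228 by edgeR, interval 0.17 to 1.01). Rrm1, the large subunit of ribonucleotide reductase, had 118, 104 and 119 CPM (control replicates 1 to 3) against 129, 137, 135 and 128 CPM (Sirt7 scKO replicates 1 to 4), without overlap and with the highest mean CPM of all members (log2 fold change 0.22 with SE 0.0808, adjusted p = 0.263 by edgeR). Rrm2, the S-phase subunit of the enzyme, had 92.4, 74.0 and 88.3 CPM (control replicates 1 to 3) against 108, 117, 106 and 88.3 CPM (Sirt7 scKO replicates 1 to 4) (log2 fold change 0.31 with SE 0.109, adjusted p = 0.254 by edgeR), and Sirt7 scKO replicate 4 lay between control replicates 1 and 3. Thymidine kinase (Tk1), which salvages thymidine, had 42.6 ± 4.58 against 44.1 ± 7.37 CPM (log2 fold change 0.05). Summed over the 4 genes, control libraries held 228 to 259.6 CPM and Sirt7 scKO libraries 281 to 308 CPM. The lowest sum, 228 CPM, was in control replicate 2. Without that library the log2 fold changes were 0.16 (Rrm1), 0.22 (Rrm2), 0.69 (Tyms) and 0.07 (Tk1). Only Tyms then had an unadjusted edgeR p under 0.05.

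The 3 chromatin genes act just behind the fork, and their values were small and positive (median 0.13, none past the threshold). Uhrf1, which brings the maintenance methyltransferase to new DNA, had 55.8, 48.7 and 65.3 CPM in control against 72.7, 58.6, 60.2 and 59.2 CPM in Sirt7 scKO (log2 fold change 0.15 with SE 0.118, adjusted p = 0.615 by edgeR), and the log2 fold change was 0.0494, 0.27 and 0.0649 without control replicates 2 and 3 and Sirt7 scKO replicate 1. Chaf1b, a subunit of the histone chaperone CAF-1, had 15.1, 12.8 and 18.2 CPM in control against 17.6, 17.9, 13.9 and 17.8 CPM in Sirt7 scKO (log2 fold change 0.13 with SE 0.158, adjusted p = 0.766 by edgeR). Its partner Chaf1a had 44.6, 40.6 and 45.5 CPM in control against 44.7, 52.2, 41.6 and 38.6 CPM in Sirt7 scKO (log2 fold change 0.03 with SE 0.115, adjusted p = 0.942 by edgeR) and shares 52.5% of its exon bases with Ubxn6 on the opposite strand.

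Genes of S-phase entry had mostly negative values, with 1 of 4 positive (median -0.13) and none past the threshold. Ccne2, which encodes cyclin E2, had 25.9, 18.1 and 22.6 CPM (control replicates 1 to 3) against 32.1, 28.4, 34.7 and 26.1 CPM (Sirt7 scKO replicates 1 to 4) (22.2 ± 3.89 against 30.3 ± 3.83 CPM). It had the smallest p of all members (log2 fold change 0.45 with SE 0.143, adjusted p = 0.214 by edgeR, unadjusted p = 0.00785), and the gap between groups ran from 25.9 to 26.1 CPM. The paralog Ccne1 (cyclin E1) had 23.4 ± 0.983 against 21.1 ± 2.94 CPM (log2 fold change -0.15). E2f1, an activator E2F, had 41.2, 52.3 and 55.5 CPM in control against 50.8, 40.4, 42.8 and 41.6 CPM in Sirt7 scKO (log2 fold change -0.18 with SE 0.123, adjusted p = 0.562 by edgeR), and E2f2 had 95.03, 90.9 and 75.9 CPM in control against 76.7, 87.5, 77.0 and 81.7 CPM in Sirt7 scKO (log2 fold change -0.11 with SE 0.0970, adjusted p = 0.649 by edgeR). The groups overlapped in Ccne1, E2f1 and E2f2. Ccne2 shares 17.4% of its exon bases with Ints8 on the opposite strand, which stood at 23.2 ± 2.60 against 23.3 ± 2.69 CPM. The difference between cyclin E genes was not tested.

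**Figure D4:**
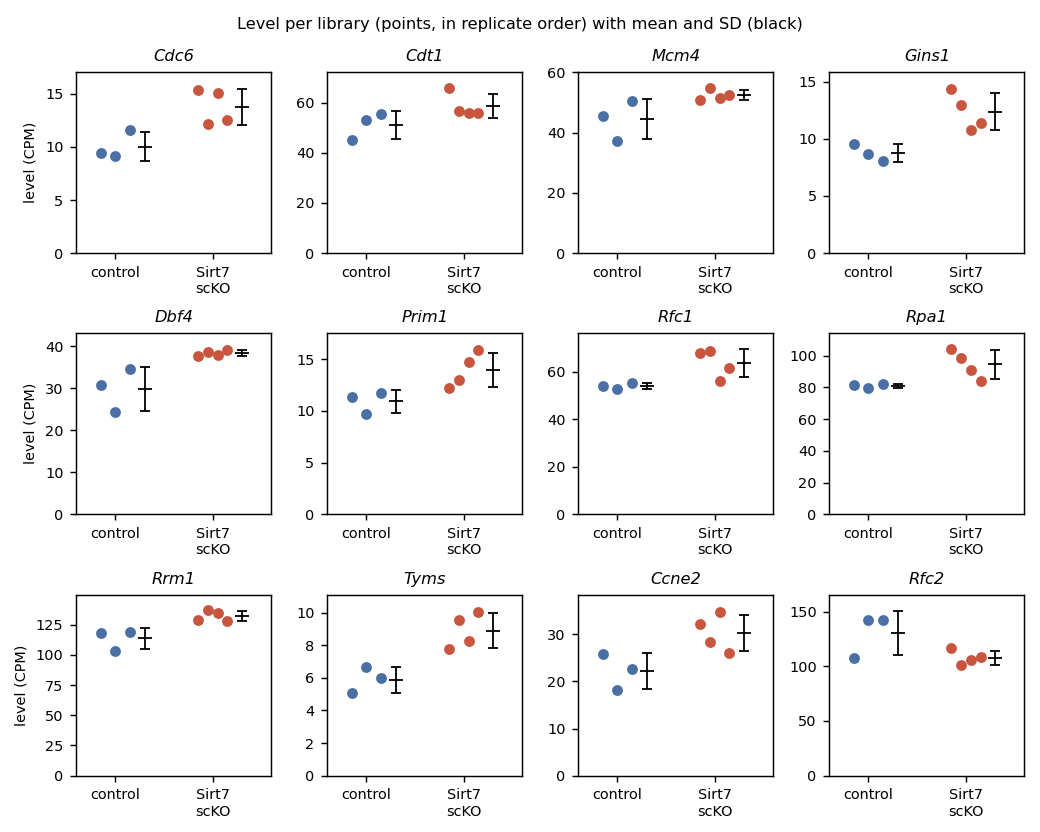
Level in CPM (y axis, from 0) of the 11 replication genes without overlap between groups, and of Rfc2, in control (blue) and Sirt7 scKO (red) libraries, with points in replicate order and mean and SD in black. In the first 11 panels all red points lie above all blue points, by narrow gaps in Cdt1, Mcm4, Rfc1 and Ccne2. In Rfc2 control replicates 2 and 3 stand above the rest.

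Counts were also present at loci that resemble these genes. Processed pseudogenes, intronless copies, were found for 12 of the 47 members (16 copies), and copies of 11 members held counts. For 5 members, Cdc6, Gmnn, Pcna, Rpa3 and Uhrf1, the copies held more counts than the gene. Bowtie2, the aligner named in the submitters' processing notes, does not align a read over an intron, and its target (genome or transcripts) is not given. The part of alignment in these counts was not tested. Pcna-ps2 on chromosome 19, 99.2% identical to the Pcna transcript, had 7460 counts against 3368 at Pcna. Its level was 137, 138 and 169 CPM (control replicates 1 to 3) against 196, 180.5, 176 and 188 CPM (Sirt7 scKO replicates 1 to 4), without overlap, whereas the groups overlapped at Pcna itself (log2 fold change 0.32 with SE 0.0912, adjusted p = 0.177 by edgeR for the copy). With its copies added, Pcna reached at most 246.8 CPM in control, below all 4 Sirt7 scKO libraries, and had a log2 fold change of 0.22 (SE 0.0835, edgeR adjusted p = 0.283). Cdc6 went the other way: its copy Gm9430 on chromosome X (95.2% identical) had 13.8 ± 1.94 against 11.9 ± 1.74 CPM, and with that copy added the log2 fold change of Cdc6 was 0.11 (edgeR adjusted p = 0.755) in place of 0.46. The groups of Cdc6 then overlapped, with 20.9 to 27.0 CPM in control and 22.9 to 28.3 CPM in Sirt7 scKO. The Rpa3 copies held 5.83 times the counts of Rpa3, and gene and copies summed had a log2 fold change of 0.06. The Mcm4 copy Gm9577 (91.1% identical) had 43.1 ± 2.85 against 51.6 ± 7.23 CPM (log2 fold change 0.26), and Mcm4 with it had a log2 fold change of 0.25 (edgeR adjusted p = 0.254). The Rfc5 copy Gm12870 (96.2% identical) had 22.3 ± 0.885 against 27.2 ± 1.78 CPM, also without overlap (log2 fold change 0.29, edgeR adjusted p = 0.283). Rfc5 with it had a log2 fold change of 0.08. Of the 13 copies tested 12 had positive log2 fold changes (51.3% of all genes tested) and none passed. At an unadjusted edgeR p under 0.05 there were 3 copies (13.6% of all genes tested). With copies added, 36 of 47 members were positive, with a median of 0.12, and still none passed.

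**Figure D5:**
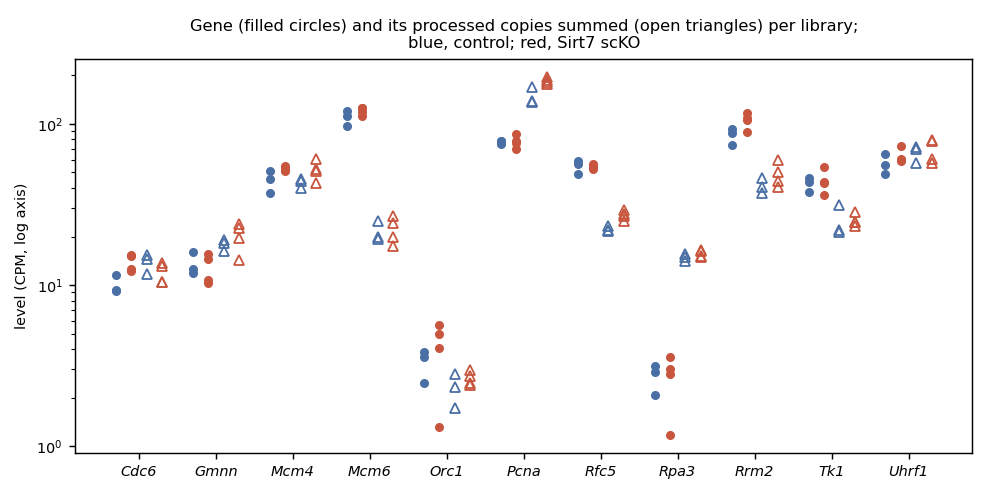
Level in CPM (y axis, log scale) of 11 replication genes (filled circles) and the sum of their processed copies (open triangles) in each control (blue) and Sirt7 scKO (red) library. Triangles lie above circles in every library for Gmnn, Pcna and Rpa3, and in most libraries for Uhrf1. At Pcna and Rfc5 the copy separates the groups and the gene does not.

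Another 56 genes of replication outside the 47 were read in the same fit, and none of them passed the threshold (0 by edgeR, DESeq2 and limma voom). Of these, 47 had positive log2 fold changes (83.9%, median 0.14), 7 had an unadjusted p under 0.05, all higher (12.5%, where all genes gave 13.6% and 6.69% higher), and 11 had no overlap between groups, all higher (6.51% of all genes). By smallest p they were led by Rrm2b, the p53-inducible small subunit of ribonucleotide reductase, with 10.4, 11.7 and 13.1 CPM in control against 17.2, 16.0, 16.6 and 15.3 CPM in Sirt7 scKO (log2 fold change 0.47 with SE 0.141, adjusted p = 0.193 by edgeR). Cyclin A2 (Ccna2), which acts in S phase with CDK2, had 114, 104 and 121 CPM in control against 134, 132, 130.1 and 137 CPM in Sirt7 scKO (log2 fold change 0.24 with SE 0.0798, adjusted p = 0.228 by edgeR). The others named by the rule were the RNase H2 subunit gene Rnaseh2c (42.0 ± 2.004 against 52.3 ± 7.28 CPM), the fork scaffold gene Wdhd1 (25.8 ± 1.05 against 30.9 ± 1.24 CPM), the polymerase epsilon subunit gene Pole3 (36.5 ± 1.83 against 42.4 ± 1.15 CPM) and the fork protection gene Tipin (21.1 ± 1.70 against 25.4 ± 2.15 CPM). Their log2 fold changes were 0.32, 0.26, 0.22 and 0.27, and all 4 Sirt7 scKO libraries exceeded the controls in each. Summed, the 56 genes held 2232, 2109 and 2255 CPM (control replicates 1 to 3) against 2375, 2408, 2364 and 2347 CPM (Sirt7 scKO replicates 1 to 4).

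The mitosis list was read for genes that act after S phase. Of its 18 genes 16 were positive (median 0.18), 5 had an unadjusted p under 0.05, all higher (27.8%, where all genes gave 13.6% and 6.69% higher), and none passed by edgeR with the filter on low counts. Without that filter Mki67 passed (edgeR adjusted p = 0.0375, range over its alternatives 0.0375 to 0.561). Far more of all genes passed in that setting than in the main fit, with the counts given further on. The spindle gene Nusap1 had 27.6, 28.0 and 27.1 CPM in control against 36.9, 33.9, 38.8 and 36.7 CPM in Sirt7 scKO (log2 fold change 0.40), the proliferation marker Mki67 had 229.5, 178 and 215 CPM in control against 255, 271, 256 and 258 CPM in Sirt7 scKO (log2 fold change 0.33), and the kinesin gene Kif11 had a log2 fold change of 0.30. Control replicate 2 was lowest in 12 of the 18 mitosis genes, in 18 of the 47 replication genes and in 21 of the 56 other replication genes. The share among all genes tested was not counted.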

How the data were processed

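Counts were the only deposited values: raw counts per gene and library, whole numbers that the authors deposited in 1 table. Fastp, Bowtie2, featureCounts and GRCm38 (mm10) are named in the submitters' processing notes, without roles or versions. The sources used here do not give the settings for strand or for reads with several placements. Identifiers were matched without version to GENCODE M21 (48058 of 48820 matched, with 0.25% of counts unmatched).

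Genes kept by filterByExpr (minimum count 10, minimum total 15) were scaled by TMM, and edgeR 4.0.16 (R 4.3.3) gave a quasi-likelihood F test per gene, group as the only term, with Benjamini-Hochberg adjustment over all 16764 genes. The biological coefficient of variation was 11.9%. SE is the log2 fold change over the square root of F, and 95% intervals use the t distribution of the fit. The test was first tested on simulated data. Copies were found with BLAST 2.17.0 (at least 80% of the copy aligned). Figures used matplotlib 3.10.9.

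The members and lists were chosen with earlier results of these data known, which also holds for the list of symbols that defines the members, so lists are described by counts and medians without a test. Values in every library are given for the 3 members of each role with the smallest unadjusted p, for members without overlap and for those with the highest and lowest mean level. Of the other replication genes the 6 with the smallest unadjusted p are named, and of the mitosis list Mki67 and the next 2. Alternatives were other scalings, filters and tools (DESeq2 1.42.0, limma 3.58.1), the replicate number as a block, copies added and each library left out.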

Additional observations from a re-analysis of the deposited data

Results flagged for a closer look

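Of the 47 replication genes and their sum, 4 had 1 Sirt7 scKO library apart from the other 3 (Dixon's criterion at the 95% level). Chance alone gives this in about 1 of 20 groups. Sirt7 scKO replicate 1 was high for Cdt1 (65.8 CPM, against 55.8 to 56.7 CPM in the others) and for Uhrf1 (72.7 CPM, against 58.6 to 60.2 CPM). Sirt7 scKO replicate 3 was low for Rpa2 (13.2 CPM, against 19.5 to 20.4 CPM) and for Chaf1b (13.9 CPM, against 17.6 to 17.9 CPM). The 3 control libraries are too few for this comparison.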

How the results depend on the processing

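No member passed the threshold in 16 of the 17 alternatives, and the same held for the other replication genes in all 17. Under the replicate block 1 member passed, Ccne2 (log2 fold change 0.52, edgeR adjusted p = 0.0481, range over its alternatives 0.0481 to 0.618). Replicate number 4 occurs only in Sirt7 scKO, so under the block that library adds nothing to the group difference. With that library left out and no block, the lowest edgeR adjusted p of a member was 0.0652 (Rrm2). The replicate numbers were not taken to pair the samples. Same-numbered libraries had correlations of their deviations of 0.123, -0.0742 and 0.0956, and not every library correlated best with its own number. The count of all genes past the threshold was 22, and became 35 with total-count scaling, 585 with no filter, 145 with DESeq2, 537 with the replicate block and 0 to 330 when 1 library was left out (2 and 0 without control replicates 1 and 2, 56 without control replicate 3, and 184, 7 and 330 without Sirt7 scKO replicates 1, 3 and 4). The median of the members was 0.057 to 0.165 when 1 library was left out (0.057 without control replicate 2) and 0.12 to 0.14 in the other alternatives. Of 799 values of single members under alternatives, 29 changed sign, in 13 members whose main values lay near 0, and no member changed sign under another scaling. Leaving out 1 library gave log2 fold changes of -0.0878 to 0.14 for Orc6, -0.18 to 0.0642 for Gmnn, -0.079 to 0.0551 for Mcm2, -0.17 to 0.0087 for Mcm7, -0.10 to 0.20 for Gins3, -0.0173 to 0.16 for Pole, -0.0448 to 0.0604 for Pcna, -0.086 to 0.0555 for Rfc5, -0.24 to 0.22 for Rpa3, -0.00057 to 0.13 for Fen1, -0.17 to 0.0806 for Lig1, -0.0606 to 0.13 for Tk1 and -0.0602 to 0.0842 for Chaf1a. The block gave -0.0452 for Pcna and -0.0606 for Tk1, no filter gave 0.0037 for Rfc5, and adding copies gave 0.0684 for Gmnn, 0.0805 for Rfc5 and 0.0565 for Rpa3. The cause of these changes was not tested. The 3 members with the lowest levels, and so the least precise by counting, were Rpa3, Orc1 and Pole2.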

Other observations

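Other words in the promoters differed between replication and mitosis genes. The word CCAAT, which the factor NF-Y binds, stood on either strand in 58.7% of the 46 windows of the 47 replication genes, in 46.4% of the windows of the other replication genes and in 88.2% of the 17 windows of the mitosis genes, against 33.8% of all promoter windows of that length. TTTGAA or TTCGAA, the words of the cell cycle homology region found in many mitosis promoters, stood in 17.4% of the windows of the replication genes, 17.9% of those of the other replication genes and 41.2% of those of the mitosis genes, against 17.1% of all. For the E2F words the shares were 19.6%, 23.2%, 5.88% and 1.86% in the same order. The median GC content of the windows was 60.4%, 62.8%, 62.0% and 52.4% in that order. Among the windows of genes tested here, whose median GC content was 59.6%, CCAAT stood in 34.8%. In the same windows TTTGAA or TTCGAA stood in 12.5% and the E2F words in 3.09%. These shares describe sequence only and were not tested.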
